A study of Mus musculus with 4 samples.

Results

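Primitive erythroid cells were the globin-rich barcodes of the E11.5 libraries: those with at least 500 detected genes, at most 10% of UMIs in mitochondrial genes and at least 20% of UMIs in genes whose symbol starts with Hba- or Hbb-. There were 923 such barcodes, hereafter the members, among 15468 barcodes at E11.5 that passed the gene and mitochondrial limits and 28924 in the whole series. The study profiled tissue dissected from the midline of the embryonic mouse forebrain, which contains the cortical hem, with 10x 3' single-cell libraries at 2 ages, E11.5 and E14.5. Control embryos were Lmx1aCre::Ai9, in which Cre under Lmx1a control turns on a tdTomato reporter, and gof embryos were Lmx1aCre::Ai9::b-cat gof, which add a gain-of-function beta-catenin allele whose design the labels do not give. Each age and genotype was 1 library, pooled from 5 male embryos for E11.5 and 3 for E14.5, so every comparison sets 1 library against another and has no test. Shares carry exact 95% Clopper-Pearson intervals and summed counts exact 95% Poisson intervals, which cover counting error only.

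Primitive erythroid cells are the first red cells of the embryo. They arise in the yolk sac, enter the circulation with their nuclei and mature there as a cohort, condensing their chromatin and losing organelles before they lose the nucleus. They carry embryonic haemoglobin, built from the zeta chain of Hba-x and the beta-type chains of Hbb-bh1 and Hbb-y, and also the adult alpha chains of Hba-a1 and Hba-a2. As they mature, Hbb-bh1 gives way to Hbb-y, and Hba-x to the adult alpha genes. Definitive red cells from the fetal liver follow them into the circulation and carry the adult beta chains of Hbb-bs and Hbb-bt. Red cells in dissected brain tissue come from the blood in its vessels.

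The 2 E11.5 libraries held 7578 control and 8677 gof barcodes with 78732126 and 59594082 UMIs. Members numbered 374 of 7314 passing barcodes in control (5.11%, 4.62 to 5.64%) and 549 of 8154 in gof (6.73%, 6.20 to 7.30%). The gof share was higher by more than counting error at this limit, but at 60% globin the order turned, with 3.28% in control and 3.13% in gof. How much blood each pool held is not known. Members carried a median of 9788 UMIs in control and 8778 in gof, of which 3475.5 and 3555 lay outside globin genes, and a median of 1022 and 1061 detected genes. The other barcodes, which are mainly neural, had more genes from fewer UMIs, with medians of 2684 and 2006 genes at 8210.5 and 5571 UMIs. The E11.5 libraries shared 18 barcode sequences, and none of these was a member in both.

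The globin share, which the rule used, had a median of 64.0% in control members (22.8 to 89.0%) and 59.2% in gof members (20.8 to 79.2%). Just outside the limit lay control barcodes at 16.2, 16.5 and 19.4% and gof barcodes at 19.2, 19.4 and 19.6%. Just inside lay control members at 22.8, 23.6 and 23.6% and gof members at 20.8, 20.9 and 22.1%. Barcodes around the limit were rare, but the libraries differed in what lay well under it. Control had 184 barcodes with 2 to 20% globin and gof had 35, with a median of 23720.5 and 20588 UMIs and 5303.5 and 4609 detected genes, which is far more than members carried. A further 28 control and 47 gof barcodes were as rich in globin and were left out by the other limits, 27 and 45 of them for having under 500 genes.

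**Figure D1:**
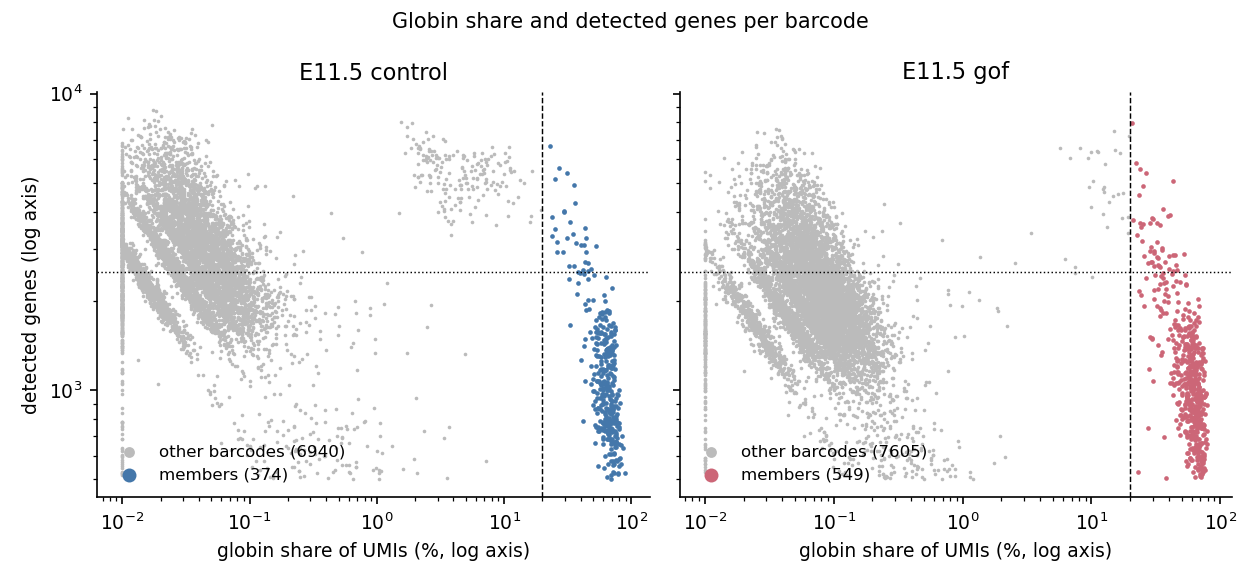
Detected genes (log axis) against the globin share of UMIs in percent (log axis) for each passing barcode of the E11.5 control and gof libraries; shares under 0.01% are drawn at 0.01%, the dashed line is the 20% limit of the rule and the dotted line 2500 detected genes. The 374 control and 549 gof members form a compact group at high globin share and few genes, and 31 and 47 of them lie at or above 2500 genes.

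The erythroid part of the label was checked against the markers that the rule did not use. Slc4a1, the band 3 anion exchanger of the red cell membrane, was at 651 and 590 CPM in control and gof members, against 2.42 and 3.09 CPM in the other barcodes of the same libraries. Here and in what follows, CPM is counts per 1000000 UMIs outside Hba- and Hbb- genes, summed over barcodes. Alas2, the erythroid form of the first enzyme of heme synthesis, was at 833 and 734 CPM against 2.71 and 2.84 CPM. Both markers were therefore concentrated in members of both libraries. Hba-x, Hbb-y and Hbb-bh1 each had at least 1 UMI in all 374 control and all 549 gof members, as the rule on globin share favours.

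Neural RNA was present in members and was unevenly spread over them. The summed level of 12 neural progenitor and 12 neuron markers was 1147 and 1024 CPM in control and gof members, against 3885 and 3316 CPM in the other barcodes. By detected genes it ran, from the fewest to the most, at 453, 426, 341, 635 and 3110 CPM in control and 494, 423, 373, 1113 and 2124 CPM in gof members, for bins with edges at 750, 1000, 1500 and 2500 genes. The neural sum was thus highest in the 31 control and 47 gof members with 2500 genes or more, and the 343 and 502 members under that limit held 467 and 616 CPM, with gof the higher. Scrublet's own threshold called 0 doublets in each library, so that threshold was not usable here and doublets were not removed. By score, the highest 428 of 7314 control and 532 of 8154 gof barcodes included 30 control and 81 gof members. Of these members, 5 control and 39 gof had under 2500 genes. The limit of 2500 genes was chosen after these levels were seen.

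Markers of other blood and vessel cells were mostly low, and the macrophage sum of gof members came nearest to that of the other barcodes. The 12 macrophage markers summed to 13.5 CPM in control, where Csf1r, C1qa, C1qc, Aif1, Tyrobp and Lyz2 were at 0, and to 97.0 CPM in gof members, where none was at 0; in the other barcodes they summed to 67.3 and 128 CPM. In members under 2500 genes the macrophage sum was 11.1 and 36.7 CPM. The 11 endothelial markers summed to 13.5 CPM in control, with Cdh5, Kdr and Tie1 at 0, and to 55.9 CPM in gof, but to 11.9 and 14.4 CPM in members under 2500 genes. The 10 megakaryocyte markers summed to 44.8 and 69.9 CPM, and under 2500 genes the order turned, to 54.7 CPM in control and 43.6 CPM in gof. By detected genes the megakaryocyte sum of control members was highest, 109 CPM, from 1500 to under 2500 genes, and the endothelial sum, 31.9 CPM, under 750 genes. Over all members the 10 markers of blood progenitors summed to 8.83 and 20.2 CPM, and the 8 mural markers to 11.2 and 15.1 CPM. Mesenchymal markers were more abundant, at 272 and 356 CPM in all members and 41.2 and 136 CPM in those under 2500 genes. Over all members each of these sums was higher in gof, and under 2500 genes each but the megakaryocyte sum. The part of this RNA in the differences between libraries was not tested.

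The globin genes lie in 2 clusters on GRCm38 (coordinates from GENCODE M21). On chromosome 11, plus strand, Hba-x (ENSMUSG00000055609) spans 32276400 to 32278116, Hba-a1 32283511 to 32284465, Hbq1b 32286965 to 32287784 and Hba-a2 32296489 to 32297298. On chromosome 7, minus strand, Hbb-y (ENSMUSG00000052187) spans 103851749 to 103853216, Hbb-bh1 103841637 to 103843164, Hbb-bs 103826534 to 103828096 and Hbb-bt 103812524 to 103813996. The 120 bases before the RefSeq start of an embryonic and an adult gene of each cluster are shown, with those of Alas2 and Kel, because these genes are read together in members and hardly outside them. The GENCODE spans of Hba-x, Hba-a1 and Hbb-bs begin further upstream than the RefSeq starts, so their stretches lie inside the spans given. Capitals mark AGATAA or TGATAA, the core bound by GATA factors, and CCNCACCC, a CACCC box of the kind bound by Klf1, on either strand. The stretches, from RefSeq on GRCm38.p6 and written 5′ to 3′ on the gene's strand, are chr11:32276480-32276599 (plus) for Hba-x, chr11:32283552-32283671 (plus) for Hba-a1, chr7:103853208-103853327 (minus) for Hbb-y, chr7:103827929-103828048 (minus) for Hbb-bs, chrX:150547297-150547416 (plus) for Alas2 and chr6:41704326-41704445 (minus) for Kel.
Hba-x: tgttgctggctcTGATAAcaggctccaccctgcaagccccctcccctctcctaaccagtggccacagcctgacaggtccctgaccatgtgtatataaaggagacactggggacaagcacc
Hba-a1: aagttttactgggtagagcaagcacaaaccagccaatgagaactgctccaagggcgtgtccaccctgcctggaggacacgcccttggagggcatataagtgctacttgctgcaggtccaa
Hbb-y: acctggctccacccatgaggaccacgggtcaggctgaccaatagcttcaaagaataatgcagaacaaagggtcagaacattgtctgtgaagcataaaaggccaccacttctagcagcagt
Hbb-bs: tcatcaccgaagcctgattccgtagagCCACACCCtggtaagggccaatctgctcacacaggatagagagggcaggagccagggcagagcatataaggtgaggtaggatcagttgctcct
Alas2: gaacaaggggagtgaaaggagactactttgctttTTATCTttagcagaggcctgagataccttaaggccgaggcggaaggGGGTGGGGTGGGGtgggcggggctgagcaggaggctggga
Kel: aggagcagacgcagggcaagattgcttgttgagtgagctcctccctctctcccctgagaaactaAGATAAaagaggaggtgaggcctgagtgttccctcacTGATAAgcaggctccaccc

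Within these stretches the GATA core was found once in Hba-x and in Alas2 and 2 times in Kel, and the CACCC form once in Hbb-bs and 2 times, overlapping, in Alas2. Each of the 4 globin stretches also holds a TATA-like run, ATAAAA or ATATAA, that starts between 30 and 28 bases before the start. Over the 250 bases before the start, 21.9% of the 114 matched genes that were at least 4-fold higher in members than in other barcodes held the GATA core. The share was 11.2% of 1424 matched genes of at least 50 CPM in members of both libraries and 18.8% of all 27025 genes in the table. For the CACCC form the shares were 30.7%, 19.7% and 16.6%. These are matches of letters and no evidence of binding.

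Embryonic chains made up most of the globin RNA of members. Hbb-y, the main embryonic beta-type gene at this age, gave 47.9% of globin UMIs in control and 45.7% in gof members. Hba-x gave 20.3 and 22.5%, and Hbb-bh1, the earlier of the beta-type genes, 3.14 and 3.49%. Summed, the embryonic share was 71.3% in control (71.2 to 71.3%) and 71.7% in gof (71.7 to 71.8%). Over barcodes it had a median of 71.8 and 72.0%, and the range without the lowest and highest 5% of members ran from 62.4 to 78.9% in control and from 62.9 to 78.5% in gof. The libraries thus differed by far less than their members did.

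Adult chains were also present in nearly every member. Hba-a1 gave 18.0% of globin UMIs in control and 20.8% in gof, and Hba-a2 4.37 and 3.60%; their sequences are nearly identical, so the division of UMIs between them is uncertain. The adult beta gene Hbb-bs gave 5.16 and 3.04% and its near copy Hbb-bt 1.21 and 0.834%. All 7 of these globins had a UMI in 358 of 374 control and 522 of 549 gof members, and 1 member of each library had no adult beta UMI. Hbb-bh2 gave 19 and 37 UMIs in all. Only 1 control and 0 gof members had more adult than embryonic globin UMIs when Hba-a1 and Hba-a2 were counted as adult.

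The libraries differed in the beta-type chains. Hbb-bs and Hbb-bt together gave 11.1% (11.05 to 11.15%) of beta-type UMIs in control and 7.30% (7.27 to 7.34%) in gof members, with barcode medians of 9.86 and 5.96%. Members overlapped widely: without the lowest and highest 5% they ran from 1.41 to 22.0% in control and from 0.659 to 16.9% in gof. In the other barcodes of the same libraries, the summed share was 10.7% in control and 6.06% in gof, a difference in the same direction. These barcodes held a median of 3 control and 4 gof globin UMIs, and their median share was 0 in both libraries. Those with 2 to 20% globin, at a median of 975.5 and 2729 globin UMIs, weigh heavily in the sums. The share of Hbb-bh1 in Hbb-bh1 and Hbb-y was 6.16% in control and 7.096% in gof members, and Hba-x was 47.5 and 48.0% of alpha-type UMIs. Alpha-type chains were 42.6% of globin UMIs in control and 46.9% in gof.

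At E14.5 the same rule found few barcodes, with another make-up. It took 37 control (0.496% of passing barcodes) and 38 gof barcodes (0.633%), while 80 and 114 globin-rich barcodes had under 500 genes. Embryonic chains gave 5.62 and 9.77% of their globin UMIs, with a barcode median of 0, and Hbb-bs alone gave 48.7 and 42.7%. Adult beta genes gave 93.0 and 87.9% of beta-type UMIs, and 32 of 37 and 31 of 38 barcodes held more adult than embryonic globin. A minority, 4 control and 7 gof barcodes, carried all 3 embryonic globins, as every member at E11.5 did. Age goes with a different pool of embryos and another library here, so their parts cannot be told apart.

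**Figure D2:**
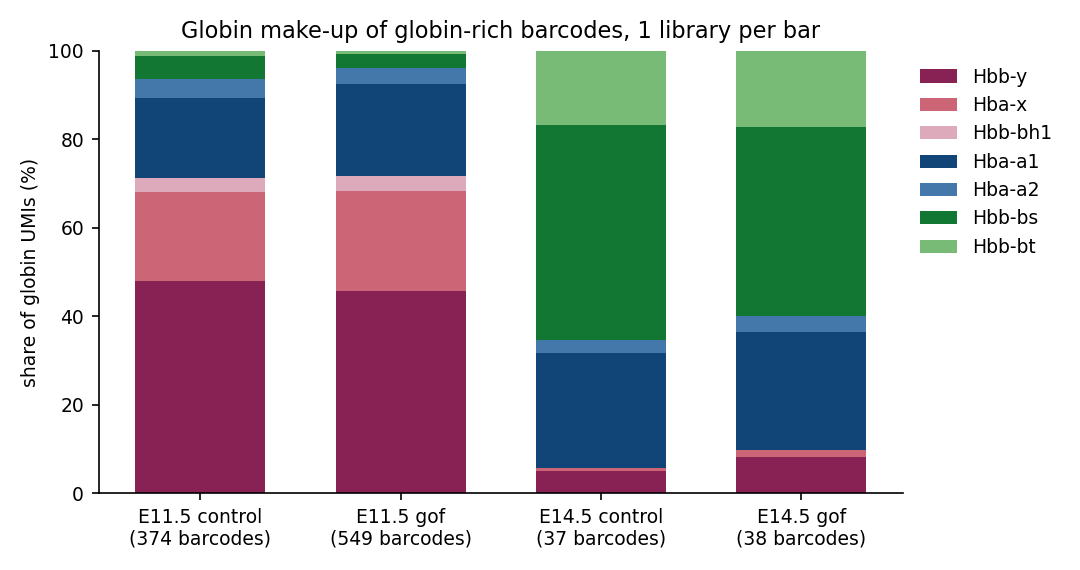
Share of globin UMIs in percent taken by each globin gene in the globin-rich barcodes of each of the 4 libraries, 1 bar per library. The red shades, the embryonic genes, cover 71.3% of the E11.5 control bar and 71.7% of the E11.5 gof bar but 5.62 and 9.77% of the E14.5 bars, where the green adult beta genes are widest.

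Outside the globins, members were set apart by the red cell programme. Of 1775 genes of at least 50 CPM in the members of both libraries, 144 (8.11%) were at least 4-fold higher in members than in the other barcodes, with separate intervals, in both libraries. Because the rule picked members by globin in the same cells, these counts describe them and are no test. Of 2553 genes of at least 50 CPM in the other barcodes, 7 (0.274%) were at least 4-fold lower in members of both libraries. Summed neural markers of members stood at 29.5% of the other barcodes in control and 30.9% in gof. With neural RNA near that share, a gene that red cells lack could still miss the 4-fold limit. The count of 7 therefore does not show which genes members lack. Folds were taken after adding 1 CPM, which understates those of genes that the other barcodes nearly lack.

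Of the heme synthesis list, 11 of 13 genes of at least 50 CPM, among 15 measured, passed the 4-fold limit. They include Alas2, Alad, Uros, Urod, Cpox, Ppox and Fech, which inserts iron and was at 802 and 594 CPM in members against 12.7 and 11.1 CPM. Slc25a37, mitoferrin 1, which brings iron into mitochondria, was at 1279 and 1050 CPM against 11.3 and 10.4 CPM. Alas1, the form of the first enzyme used in most tissues, was at 6.48 and 2.72 CPM in members and 11.6 and 10.3 CPM elsewhere. Members thus read Alas2 and very little Alas1. Blvrb, biliverdin reductase B, was at 2645 and 1761 CPM against 26.3 and 28.3 CPM.

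Of the iron list, 4 of 10 genes of at least 50 CPM passed, among 17 measured: Fth1, Ncoa4, Glrx5 and Isca1. Fth1, the heavy chain of the iron store ferritin, was the most abundant of them at 59245 and 46093 CPM in control and gof members, 22.6-fold and 14.7-fold over the other barcodes. Ncoa4, the receptor that sends ferritin to autophagy, was at 225 and 179 CPM. Tfrc, the transferrin receptor that takes up iron, was at 117 and 128 CPM, 4.01-fold higher in control and 3.86-fold in gof, and so fell short. Steap3, the endosomal iron reductase, stood at 25.9 and 20.96 CPM, under the level limit.

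The membrane and its skeleton were nearly complete, with 15 of 20 genes past the limit among 23 measured. Beside Slc4a1 they included the beta spectrin Sptb (178 and 141 CPM), the anchor Ank1 (157 and 91.2 CPM), Epb42, Dmtn and Add2. Blood group proteins were also among them: Kel, an endopeptidase of the cell surface, at 425 and 404 CPM; Rhd at 703 and 494 CPM; its partner Rhag at 149 and 144 CPM; and Icam4 at 217 and 183 CPM. In the other barcodes none of these 4 exceeded 3.896 CPM. Of channels and transporters, Aqp3, an aquaglyceroporin, and the amino acid carriers Slc43a1 and Slc38a5 passed, which is every one of the 3 at 50 CPM in both, while Aqp8, another water channel, was at 76.6 and 49.3 CPM. Aqp1, the main water channel of adult red cells, had no UMI in control members, where 3 UMIs, the limit used for a count of 0, would be 1.77 CPM, and 3 UMIs, 1.16 CPM, in gof members.

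Among 24 erythroid transcription factors, 8 reached 50 CPM in both libraries and 5 of these passed. Gata1, the central factor of the lineage, was at 73.0 and 62.1 CPM in members against 0.528 and 0.640 CPM elsewhere. Klf1, which drives globin and other red cell genes, was at 146 and 138 CPM, and Tal1 at 142 and 144 CPM. Zfpm1, the Gata1 partner FOG1, and Foxo3, a factor of red cell maturation, were the others. Gata2, Myb and Kit, which mark earlier progenitors, were at 0.589, 1.18 and 2.94 CPM in control and 1.55, 1.55 and 3.88 CPM in gof members. Members of both libraries thus read Gata1, Klf1 and Tal1 and next to none of these progenitor genes. Bcl11a and Sox6, repressors of embryonic globins in definitive cells, were at 24.1 and 19.4 CPM in control and 26.8 and 28.3 CPM in gof members. These levels were 0.202-fold and 0.151-fold of the other barcodes in control and 0.281-fold and 0.368-fold in gof. The summed neural markers of members stood at 29.5% of the other barcodes in control and 30.9% in gof. The part of neural RNA in the Bcl11a and Sox6 levels was not tested.

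Other groups were partly shared with the rest of the tissue. Of 17 antioxidant genes at 50 CPM, 6 passed, led by the peroxide-removing enzymes Prdx2 (14449 and 10268 CPM) and Gpx1 (12653 and 9630 CPM). Of 11 red cell enzymes, 3 passed: Car2, a carbonic anhydrase, at 2639 and 1850 CPM; Bpgm, which makes the 2,3-bisphosphoglycerate that tunes oxygen release, at 846 and 496 CPM; and Nt5c3. Glycolytic Gapdh was lower than elsewhere, at 1736 and 1467 CPM against 2646 and 2218 CPM. Of the erythropoietin list, Pim1, a survival kinase, passed, and the receptor Epor was at 60.1 and 45.4 CPM. None of 6 autophagy, 10 S phase or 26 G2 and M phase genes at 50 CPM passed in members. Of 16 Wnt targets, 0 reached 50 CPM in members of both libraries, and their sum was 150 and 187 CPM against 554 and 581 CPM elsewhere. In members under 2500 genes the sum was 69.8 CPM in control and 110 CPM in gof.

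Several of the 20 highest ratios belonged to genes outside these lists. Ncf4, a subunit of the phagocyte NADPH oxidase, was at 986 and 962 CPM in control and gof members against 2.57 and 2.47 CPM. Acp5, tartrate-resistant acid phosphatase, was at 768 and 525 CPM against 3.21 and 1.75 CPM. Hemgn, a nuclear protein of blood cells, was at 665 and 617 CPM, and the small membrane protein Pdzk1ip1 at 552 and 416 CPM. Krt15, a keratin of epithelia, was at 181 and 255 CPM, Rec114, known from meiotic recombination, at 329 and 345 CPM, and Cfap57, named for cilia, at 219 and 284 CPM. None of these 7 exceeded 3.21 CPM in the other barcodes. Hbq1b, a theta globin gene between the adult alpha genes, was not in the rule and stood at 234 and 179 CPM, 175-fold and 142-fold over the other barcodes.

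**Figure D3:**
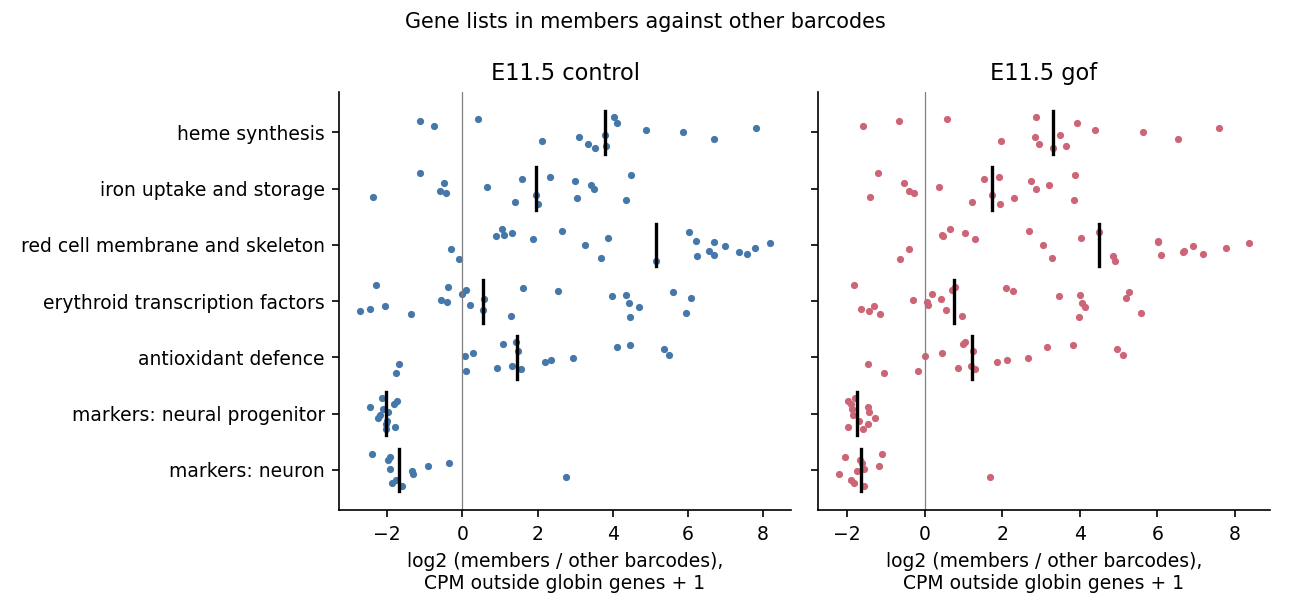
Log2 ratio of members over the other barcodes of the same library, after adding 1 CPM, for the measured genes of 5 red cell and 2 neural gene lists in the E11.5 control and gof libraries; each point is a gene and the black bar the list median. Most heme synthesis and membrane genes lie far to the right in both libraries, the neural markers lie left of 0, and the single neuron marker on the right is Reln.

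Reln was the exception among neural markers. It encodes reelin, a secreted glycoprotein known in this tissue as the product of Cajal-Retzius neurons, and lies on chromosome 5 from 21884454 to 22344702. It was at 147 CPM (130 to 167 CPM) in control and 72.2 CPM (62.2 to 83.3 CPM) in gof members, against 21.1 and 21.8 CPM in the other barcodes. By detected genes its level was 185, 177, 187, 136 and 87.0 CPM in control and 113, 118, 68.3, 55.4 and 54.5 CPM in gof members, with the lowest value where the other neural markers were highest. The level was 168 and 78.8 CPM in members under 2500 genes. A Reln UMI was found in 161 of 374 control and 132 of 549 gof members, with at most 7 and 12 UMIs in 1 member. After thinning members under 2500 genes to 1500 UMIs outside globin genes, the share was 24.9% (20.3 to 29.96%) of 329 and 10.8% (8.17 to 13.99%) of 471. Unthinned, 12.7 and 9.44% of the other barcodes had a Reln UMI, at a median of 8207 and 5563 UMIs outside globin genes.

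Members also varied in the balance of earlier and later globins. They were ordered, within each library and under 2500 genes, by the share of Hba-x in alpha-type UMIs, and divided into 4 bins of equal size from the lowest to the highest share. The lowest bin lay under 43.3% in control and 42.5% in gof, and the highest from 52.0% in both. The share of Hbb-bh1 in Hbb-bh1 and Hbb-y went over the bins from a median of 4.80 to 7.34% in control and from 5.49 to 8.39% in gof. Adult beta chains went the other way, from 12.8 to 7.09% and from 8.41 to 3.21% of beta-type UMIs. The alpha and beta clusters thus moved together across members, with a Spearman correlation of 0.37 in control and 0.35 in gof between the Hba-x and Hbb-bh1 shares and of -0.33 and -0.32 between the Hba-x and adult beta shares. These are descriptions over 343 and 502 barcodes that share a library. Detected genes moved with the order too, from a median of 802 to 1194 and from 841.5 to 1229.

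A small number of genes were lower where the Hba-x share was higher. Of 558 genes of at least 200 CPM, 13 (2.33%) were at least 1.5-fold lower in the highest than in the lowest bin of both libraries, with separate intervals. That level could be reached through the bin where a gene was high, so the counts favour genes that differ between bins. They include Mkrn1, a ubiquitin ligase, at 976 CPM in the lowest and 440.5 CPM in the highest bin of control and at 396 and 197 CPM in gof. Map1lc3b, the LC3 protein of autophagosomes, was at 773 and 476 CPM in control and 444 and 289 CPM in gof. Epb41, the skeletal protein 4.1, was at 599 and 323 CPM and at 278 and 181 CPM. The ubiquitin gene Ubb, Ypel3, Pim1, Rec114, Cd59a and St6galnac3 were also among the 13. The summed autophagy list went from 3149 to 2035 CPM in control and from 2220 to 1472 CPM in gof, and Fth1 from 87219 to 61641 CPM and from 65111 to 50073 CPM.

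A similar number were higher there. Of the same 558 genes, 11 (1.97%) were at least 1.5-fold higher in the bin with most Hba-x in both libraries. Mt1, a metal-binding metallothionein, was at 1664 CPM in the lowest and 4175 CPM in the highest bin of control and at 2327 and 6065 CPM in gof, and Mt2 followed it. Nhp2, of the ribosome-modifying particles, was at 85.0 and 263 CPM in control and at 136 and 236 CPM in gof. Pole4, a subunit of a DNA polymerase, Cenpw of the centromere, the mitochondrial ribosomal proteins Mrps14 and Mrpl42 and the transport factor Ranbp1 were others. Nhp2 and Pole4 reached 200 CPM only in the highest bin of each library. The summed S phase list went from 1461 to 2260 CPM in control and from 1568 to 2191 CPM in gof. Neural markers went along the same order from 668 to 323 CPM and from 1105 to 380 CPM, and their part in these differences, like that of detected genes, was not tested.

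**Figure D4:**
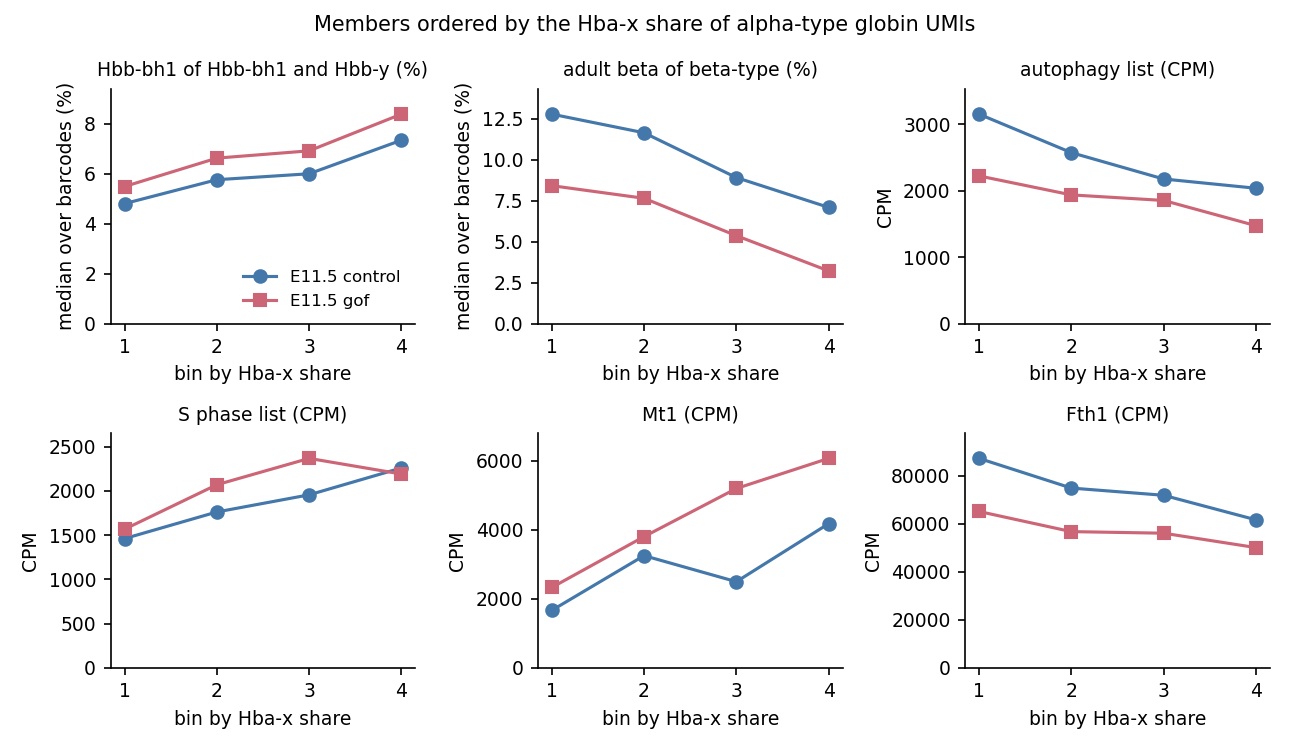
Members under 2500 detected genes in 4 bins of increasing Hba-x share of alpha-type globin UMIs (x axis) in the E11.5 control and gof libraries: the medians over barcodes of 2 globin shares in percent, and summed levels in CPM of 2 gene lists and 2 genes. In both libraries Hbb-bh1 and Mt1 are highest, and adult beta globin, autophagy genes and Fth1 lowest, in the last bin, and the S phase sum is higher in the last than in the first bin.

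Transcripts of G2 and M phase genes were unevenly spread over members. The summed level of 50 G2 and M phase genes went from 1852 and 2190 CPM in control and gof members of under 750 genes to 9705 and 7746 CPM in those of 1000 to under 1500 genes. After thinning members under 2500 genes to 1500 UMIs outside globin genes, which left out 14 control and 31 gof members, 44.4% (38.9 to 49.9%) of 329 control and 48.6% (44.0 to 53.2%) of 471 gof members had at least 8 UMIs of this list. Without thinning these shares were 54.2 and 62.2%. In the other barcodes the thinned shares were 50.1 and 45.0%. The intervals of the members' shares overlap, and the level runs in a range, with 30 control and 68 gof members at 6 to 9 UMIs near the limit. Members with at least 8 had a median of 1351 and 1241 detected genes against 800 and 846 in those with at most 3.

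The comparison of gof with control asks how the libraries differ within members. Of 2167 genes of at least 50 CPM in the members of either library, 90 (4.15%) were at least 1.5-fold higher in gof with separate intervals and 192 (8.86%) lower, which compares 2 libraries and not the genotypes. In members under 2500 genes, 139 were higher and 219 lower of 1943. The median log2 ratio of all 2167 was -0.08. Scaled to all UMIs, globin included, the split turned to 105 higher and 30 lower of 1021 genes and the median to 0.15, because globin took 59.9% of the UMIs of control members and 54.5% of those of gof members. Levels outside globin are therefore relative to each other. In the other barcodes of the same libraries, 87 (2.87%) of 3027 genes were higher in gof and 139 (4.59%) lower.

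In the heme and membrane lists, the genes past the limit were all lower in gof. Of 13 heme synthesis genes tested, 0 were higher and 3 lower in gof: Alad, the second enzyme of the pathway, at 913 and 582 CPM; Tmem14c, a mitochondrial membrane protein needed for porphyrin transport, at 1821 and 1023 CPM; and the mitochondrial transporter Abcb10 at 152 and 96.2 CPM. The median log2 ratio of the list was -0.28, and -0.19 scaled to all UMIs. Alas2 was within the limit, at 833 CPM (790 to 877 CPM) in control and 734 CPM (701 to 768 CPM) in gof. Among the 21 membrane genes tested, all ratios were under 1, with a median log2 of -0.27, and 5 passed, among them Ank1, Epb41, Ermap and Cd24a. Ank1 was at 157 and 91.2 CPM, while Slc4a1, Kel and Rhag differed by at most 1.10-fold.

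Other lists of red cell function also had genes on the lower side, to be read against the 8.86% of all genes tested that were lower. Of 12 red cell enzymes 0 were higher and 2 lower, Bpgm and Nt5c3. The median log2 of that list was -0.18, and it turned to 0.16 in members under 2500 genes and to 0.0009 scaled to all UMIs. Bpgm was at 846 CPM (803 to 891 CPM) in control and 496 CPM (470 to 524 CPM) in gof. Of 10 iron genes 1 was lower, Ftl1, the light chain of ferritin, at 5781 and 3384 CPM. Of 17 antioxidant genes, 0 were higher and 3 lower (Prdx6, Gclm and Glrx), with Gclm, a subunit of glutathione synthesis, at 936 and 529 CPM. Of 10 ubiquitin genes 3 were lower (Ube2o, Ube2h and Usp15), and of 6 autophagy genes 1, the mitophagy receptor Bnip3l, at 489 and 295 CPM. Mkrn1, named after its values were seen, was at 512 and 241 CPM. Scaled to all UMIs, Alad, Bnip3l, Blvrb, Aqp8, Kcnn4, Slc48a1, Bcl2l1, Gadd45a and Mbd2 no longer reached 1.5-fold. Nor, among others, did Abcb10, Ermap, Cd24a, Nt5c3, Glrx, Usp15, Cenpf, Smc4 and Ckap5. On that scale Tmem14c, Ank1, Bpgm, Ftl1, Gclm and Mkrn1 still did.

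Transcription factors, cell cycle genes and ribosomal protein genes were compared in the same way. Of 12 erythroid transcription factors tested, 1 was higher, E2f4, a cell cycle repressor factor, at 34.2 and 53.2 CPM in control and gof, and 0 lower. The median log2 of that list was -0.16, and it changed sign to 0.19 scaled to all UMIs, as did that of the iron list (-0.14 and 0.04). Of 14 S phase genes 0 were higher and 1, Clspn, lower, and the median log2 of -0.03 changed sign in 9 alternatives. Of 28 G2 and M phase genes 0 were higher and 4 lower, Cenpf, Smc4, Hmmr and Ckap5, and 22 ratios were under 1, with a median log2 of -0.27. Of 80 ribosomal protein genes 5 were higher and 0 lower, with a median log2 of 0.05. Of 18 genes of the dissociation and stress list, 8 were tested, 0 were higher and 2, Junb and Ier2, lower, and all 8 ratios were under 1, with a median log2 of -0.28. The mitochondrial share of all UMIs, which the rule limits, was higher in gof, with a median of 0.873% in control and 1.37% in gof members. Of summed UMIs outside globin genes it was 3.04% in control and 3.69% in gof members, and 4.46 and 4.81% in the other barcodes.

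A few genes differed most. Ctse, cathepsin E, an aspartic protease, was at 94.8 CPM (80.7 to 111 CPM) in control and 16.3 CPM (11.7 to 22.0 CPM) in gof members, a log2 ratio of -2.47. It lies on chromosome 1 from 131638306 to 131675505 and was at 0.352 and 0.282 CPM in the other barcodes. After thinning, 13.7% (10.2 to 17.9%) of control and 2.34% (1.17 to 4.14%) of gof members under 2500 genes had a Ctse UMI. Of its UMIs in passing barcodes, 161 lay in members and 26 in the other barcodes of control, and 42 and 15 in gof. Its level was thus far higher in members than elsewhere in both libraries, and lower in gof than in control members. Reln had a log2 ratio of -1.02 in members and 0.05 in the other barcodes. Ccdc141 was at 73.0 and 29.1 CPM in members and at 3.60 and 11.03 CPM in the other barcodes.

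Other large differences were shared by members and the other barcodes of the same library. The linker histone H1f5 had a log2 ratio of -1.96 in members and -2.15 in the others, the histone Hist1h2ap -2.04 and -1.72, and the neural progenitor factor Hes5 -2.22 and -2.77. After the profile of the other barcodes was subtracted, the log2 ratio of Hes5 in members was 2.23, which was not called. Hes5 is among the neural markers that set the subtracted fraction, and the subtraction left nothing of it in control members. The turned sign thus rests on an emptied control level, and the direction of Hes5 in members is uncertain. On the higher side, Osbpl7, a lipid transfer protein, had 3.37 and 2.77, Rpgrip1 1.95 and 1.74, Spry2, an inhibitor of growth factor signalling, 1.86 and 1.14, and Slc24a5, a cation exchanger of pigment cells, 1.44 and 0.98. In these genes both populations of a library lay on the same side. Of the gof Osbpl7 UMIs 39.1% came from 1 member, without which and its control counterpart the log2 ratio was 2.98. Of the gof Rbm27 UMIs 44.5% came from 1 member, and the log2 ratio of 1.28 was 0.52 without it and -0.13 at 40% globin.

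A pair of genes outside the rule for named genes, chosen after their values were seen, stood further out. Rpl29, a protein of the large ribosomal subunit on chromosome 9 from 106429454 to 106431568, was at 93.6 and 1168 CPM in control and gof members, and at 125 and 1074 CPM in the other barcodes. It has many near-identical pseudogenes, so its counts are uncertain. Gm16867, annotated as protein coding on chromosome 14 from 69363504 to 69503362, had 1 UMI in control and 642 UMIs in gof members, a ratio of 423 (75.7 to 16736). It was found in 273 of 549 gof members, with at most 10 UMIs in 1 member, and had 11 control and 113 gof UMIs in the other barcodes. In gof it was thus mostly a gene of members, and it was spread over many of them.

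Metallothioneins went in opposite directions in members and in the rest of the tissue. Mt1 was at 2503 CPM (2429 to 2580 CPM) in control and 3820 CPM (3745 to 3896 CPM) in gof members, and at 85.9 and 47.9 CPM in the other barcodes. Mt2 was at 699 and 1052 CPM in members and 69.3 and 28.6 CPM elsewhere. The log2 ratios were 0.61 and 0.59 in members and -0.83 and -1.25 in the others. In members of both libraries Mt1 was also higher where the Hba-x share was higher, and the part of that order in the difference between libraries was not tested.

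The reporter and the Wnt pathway target Axin2 were lower in members than in the other barcodes. tdTomato had 24 control and 31 gof UMIs in members, 14.1 and 12.03 CPM, against 37.2 and 32.5 CPM in the other barcodes, and was at 3.17 and 6.39 CPM in members under 2500 genes. Ctnnb1, which encodes beta-catenin, was at 81.9 CPM (68.8 to 96.7 CPM) and 100.1 CPM (88.3 to 113 CPM), and these 3' counts do not check the allele. Axin2, a common target of the pathway, was at 17.1 and 15.9 CPM in members against 70.6 and 65.02 CPM elsewhere. The intervals of each of these genes overlapped between the libraries' members.

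**Figure D5:**
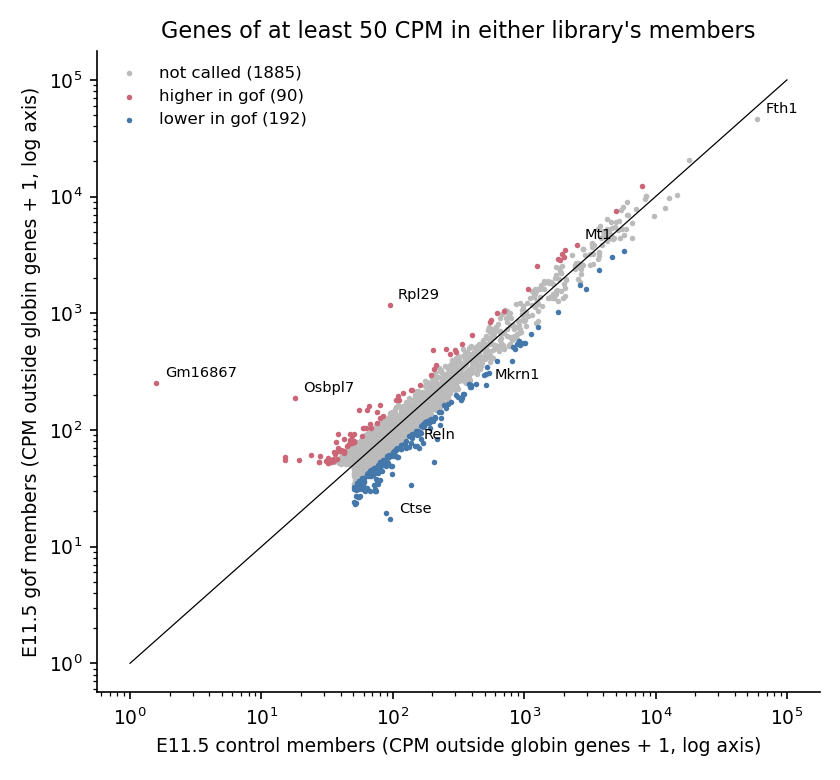
Level in gof against control members, in CPM outside globin genes plus 1 on log axes, for the 2167 genes of at least 50 CPM in either; colours mark the 90 genes called higher and the 192 called lower in gof, and the line marks equal levels. Gm16867, Rpl29 and Osbpl7 stand far above the line and Ctse below it, while Fth1 lies nearer to it.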

How the data were processed

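Dissociated tissue was run on the 10x Chromium 3' v3.1 chemistry. The values are raw UMI counts, which the authors deposited as 1 matrix of genes and barcodes per library. Cell Ranger 7.1.0 and mm10 are named in the submitters' processing notes, and the gene annotation was not given in the sources used here. Each matrix has 21937 features, and no barcode has fewer than 500 UMIs, which points to cell filtering before deposit. Ahsp and Aldoa are not analysed here.

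Counts were summed over members or over the other passing barcodes, without removal of doublets or free RNA, and scaled to CPM of UMIs outside Hba- and Hbb- genes with Python 3.11.15, numpy 2.4.6, scipy 1.17.1 and pandas 2.3.3. Ratios used a pseudocount of 1 CPM. On simulated libraries of 2009 genes the 1.5-fold rule called 100% of genes changed 4-fold, 98% of those changed 2-fold, 0% of those changed 1.25-fold and 0.221% of the rest. The simulated sums hold Poisson counting error only, which the intervals also assume. These rates therefore do not cover differences between barcodes, pools or libraries, or foreign RNA. Gene positions come from GENCODE M21 and promoters from RefSeq. Named genes are the globins and markers, the 20 highest ratios over other barcodes, the 10 highest and 10 lowest gof over control ratios (leaving out globins, Y-linked genes, clone names and genes of mitochondria and ribosomal proteins), the most abundant and extreme genes of each list and a few preset ones; others are named as members of a list or of a count. The members and lists were chosen with earlier results of these data known. Alternatives changed the limits of the rule, the scaling, the weighting and the doublet and foreign RNA handling. Results for a few items are not reported here.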

Additional observations from a re-analysis of the deposited data

Results flagged for a closer look

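Of 282 genes called between the E11.5 libraries in members, 55 had a gof over control ratio of the opposite sign in the other barcodes, and 7 were at least 1.5-fold different with separate intervals in opposite directions, at 5 CPM or more in the other barcodes; the difference between these populations was not tested. The share of opposite signs over all genes tested is not given here, so the 55 cannot be set against it. Of the 7, 4 are named in the comparisons. Ccdc141 had a log2 ratio of -1.30 in members and 1.39 in the other barcodes, Junb -0.71 and 0.95, Mt2 0.59 and -1.25, and Mt1 0.61 and -0.83. Sgk3, Tmem189 and Slc22a4, named after their values were seen, had -0.62 and 0.73, -0.65 and 0.66, and -0.75 and 1.96.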

How the results depend on the processing

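No paired analysis was possible because each group is 1 library, and no library could be left out. Pool, library and genotype cannot be told apart. The share of members moved to 3.28% in control and 3.13% in gof at 60% globin, to 2.80 and 4.04% at 1000 genes and to 7.103 and 10.8% at 5% mitochondrial UMIs, where fewer barcodes pass, and to 5.79% in gof at 40% globin. The embryonic share, whose interval is narrow, moved to 71.3% in control at 10% globin, 70.5 and 70.5% at 60%, 72.3 and 72.7% at 1000 genes, 71.4 and 71.9% without the highest Scrublet scores, 71.7 and 72.4% in the 50% of members with least foreign markers, and 71.7% in gof with equal weights. With level limits of 10 CPM, 200 CPM and none, the genes higher in gof were 245, 30 and 289 and those lower 315, 46 and 326; under 2500 genes 139 were higher, and scaled to all UMIs 30 were lower. Genes over other barcodes were 224, 54 and 254 at these limits and 60 scaled to all UMIs. Of 54 named genes called between the libraries, 23 were called in every alternative. Signs reversed for Col3a1 (-0.65) and Hes5 (2.23) after subtracting the other barcodes' profile. They also reversed for H1f10 (-0.017) and Rbm27 (-0.13) at 40% globin, and for Pbld1 (-0.11) in members with least foreign markers. None of these reversed values was called, and that of Hes5 rests on a control level emptied by the subtraction. The cause of the other reversals was not tested. Of 230 list medians, 16 changed sign, in 6 lists, 9 of them in the S phase list.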
